A study of Mus musculus with 15 samples.

Results

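Primary granule enzymes and promyelocyte genes were followed across leukaemic mouse spleens, all with acute promyelocytic leukaemia (APL). The set holds 8 genes: the peroxidase gene Mpo, the serine protease genes Elane, Prtn3 and Ctsg, and the promyelocyte genes Ms4a3, Cst7, Mgst1 and Serpinb1a. Members were every probeset whose only annotated gene symbol is one of these 8 names. That gave 75 probesets of 208397 with a single symbol, and 8 of 16277 named genes. The platform annotation lists Elane under its older name, Ela2.

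The study profiled 15 tumours on the Affymetrix Mouse Exon 1.0 ST array, which reads each gene through several probesets. All 15 samples carry the same labels: spleen, strain Bl/6 Taconic, disease state acute promyelocytic leukemia. The labels used here give no genotype, transgene, promoter, treatment, age or time, and no healthy spleen was analysed here, so no group comparison followed from them and the question is how the members differ between tumours. Whether each tumour is from its own animal is not stated either, and p-values therefore measure only the spread between these 15 arrays. For each gene the deposited intensities were log2 transformed and the median of its probesets was taken, and errors are SDs over the 15 tumours. Probes differ in how brightly they report a transcript, so a level ranks no gene above another; only a gene's differences between tumours were compared. In bulk spleen RNA, fewer cells of a type and less RNA per cell cannot be told apart.

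Median intensity lay between 108 and 129 per array, and correlations between arrays over all genes lay between 0.928 and 0.978. A pair of arrays, tumor_9509 and tumor_9514, differed from the rest: r was 0.964 between them, and 0.949 at most between either one and the remaining 13. Calls were also made without them. The members' mean levels, 8.64 to 12.91, were above the detection limit of 6.415, the 40th percentile over all named genes. Markers of other cells were counted as detected when above that limit and read by at least 3 probesets. Of 7 measured B cell markers 4 were detected, and 6 of 7 T cell markers, Ms4a1 and Cd4 not among them. Of 8 measured red pulp macrophage markers 7 were detected, without Spic. Of 6 erythroid markers 3 were detected, without Hbb-b1, Klf1 and Gata1. The log2 of the summed intensity of all 6 lay between 10.07 in tumor_9500 and 12.93 in tumor_9509. The detected 3 were dim: Alas2 had a mean of 6.43, and Slc4a1 and Epor reached 7.75 and 6.97 at most. Most of the sum therefore came from markers counted as not detected. A gene read by fewer than 3 probesets is counted so at any level, and erythroid RNA was not absent.

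Promyelocytes are the neutrophil precursors in which azurophil, or primary, granules are made, and APL cells are blocked at about this stage. The granules carry myeloperoxidase, which turns hydrogen peroxide and chloride into hypochlorous acid, and the serine proteases neutrophil elastase, proteinase 3 and cathepsin G. Their genes are switched on together in early myeloid cells by factors that include PU.1, C/EBP proteins, Runx1 and Myb, and are shut down as the cell matures. The proteases are cut to their active form by cathepsin C, bound in the granule by serglycin, and held in check in the cytosol by inhibitors such as the protein of Serpinb1a.

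The promoters of the 4 granule enzyme genes are shown because Prtn3 and Elane are neighbours on chromosome 10 whose levels are compared below, while Mpo lies on chromosome 11 and Ctsg on chromosome 14. Each is the 250 bases before the RefSeq start of the gene in GRCm38.p6, read 5' to 3' on the gene's strand. Of the 8 members, 7 have a promoter in the RefSeq table used here. Capitals mark GAGGAA, a core recognised by PU.1, or TTGCNNAA, a C/EBP core, on either strand.
Elane, chr10:79886062-79886311, plus strand: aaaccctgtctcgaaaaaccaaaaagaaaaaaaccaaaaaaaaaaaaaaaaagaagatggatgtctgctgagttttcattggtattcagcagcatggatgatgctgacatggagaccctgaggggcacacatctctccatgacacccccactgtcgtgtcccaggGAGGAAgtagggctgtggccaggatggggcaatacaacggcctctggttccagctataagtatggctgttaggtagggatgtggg
Prtn3, chr10:79879417-79879666, plus strand: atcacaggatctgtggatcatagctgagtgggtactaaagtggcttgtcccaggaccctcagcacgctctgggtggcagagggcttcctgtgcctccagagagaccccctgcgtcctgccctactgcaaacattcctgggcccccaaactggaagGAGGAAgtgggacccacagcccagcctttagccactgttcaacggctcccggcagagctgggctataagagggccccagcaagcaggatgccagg
Mpo, chr11:87793534-87793783, plus strand: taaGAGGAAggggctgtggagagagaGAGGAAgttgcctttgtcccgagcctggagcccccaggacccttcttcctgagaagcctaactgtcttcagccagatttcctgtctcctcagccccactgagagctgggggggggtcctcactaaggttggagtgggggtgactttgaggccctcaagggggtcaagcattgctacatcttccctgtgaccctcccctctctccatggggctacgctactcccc
Ctsg, chr14:56102575-56102824, minus strand: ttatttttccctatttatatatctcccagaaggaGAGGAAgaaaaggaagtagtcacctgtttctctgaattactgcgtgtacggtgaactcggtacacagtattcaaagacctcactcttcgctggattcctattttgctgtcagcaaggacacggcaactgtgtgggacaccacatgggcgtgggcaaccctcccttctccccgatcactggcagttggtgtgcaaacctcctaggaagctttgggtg
GAGGAA occurred once in the Elane promoter, 85 to 80 bases before the start, and once in the Prtn3 promoter, 95 to 90 bases before it. The Mpo promoter held 2 matches, at 247 to 242 and 224 to 219 bases, and the Ctsg promoter 1, at 216 to 211 bases. TTGCNNAA occurred in none of the 4. Over 27025 mouse promoters of this length, 23.1% held GAGGAA and 9.55% held TTGCNNAA on either strand, so a match is common and describes letters only. A RUNX core, TGTGGT, found in 14.2% of promoters, occurred in Ctsg but not in Elane, Prtn3 or Mpo. The Myb core AACNG was found in all 4, as it was in 74.1% of promoters. No match of one motif overlapped another in these 4.

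Elane, the gene of neutrophil elastase, varied most among the 8. Its log2 intensity was lowest in tumor_33 at 8.56, had a median of 10.57, and was highest in tumor_9492 at 11.83, a 9.65-fold range. The mean was 10.28 ± 1.02 (SD, n = 15). Tumours tumor_33, tumor_9529, tumor_9523 and tumor_29 had 8.56, 8.66, 8.72 and 9.30, and a gap of 0.77 separated them from the other 11, which began at 10.06 in tumor_9500. The highest values after tumor_9492 were 11.33 in tumor_9504, 11.18 in tumor_9520 and 11.10 in tumor_26. An SD above 1 was found in 71 of 9452 genes (0.751%), among which Elane ranked 66th. A gap at least as wide occurred in 474 genes (5.01%). The members were chosen with this spread known, so it is a description and carries no test. What sets the Elane differences was not tested.

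The spread of Elane was read in the same way by 5 of its 6 probesets. All 6 were highest in tumor_9492, and the lowest tumour was tumor_33 in 4 and tumor_9529 in 2. The 5 probesets other than 4386803 had SDs of 0.86 to 1.13, and each had an r of 0.95 to 0.99 with the median of the others. Probeset 4386803 lay at 7.41 with an SD of 0.26 and an r of 0.54 with the others. It was at 7.39 in tumor_33 and 7.41 in tumor_9523, about its own mean. Means over odd-ranked and over even-ranked probesets, ranked by identifier, correlated at 0.987 across tumours.

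Ela2 is also an older name of a pancreatic elastase gene, so pancreatic enzymes were read as a check of identity. The 12 measured had means of 4.71 to 7.37 on the log2 scale, 4 of them above the detection limit. Their correlations with Elane over the tumours ran from -0.39 to 0.38. Of the 4 above the limit, Cela1, Clps and Ctrl had r of -0.39, -0.15 and -0.06, and Ctrb1 had 0.38, the most positive of the 12.

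**Figure D1:**
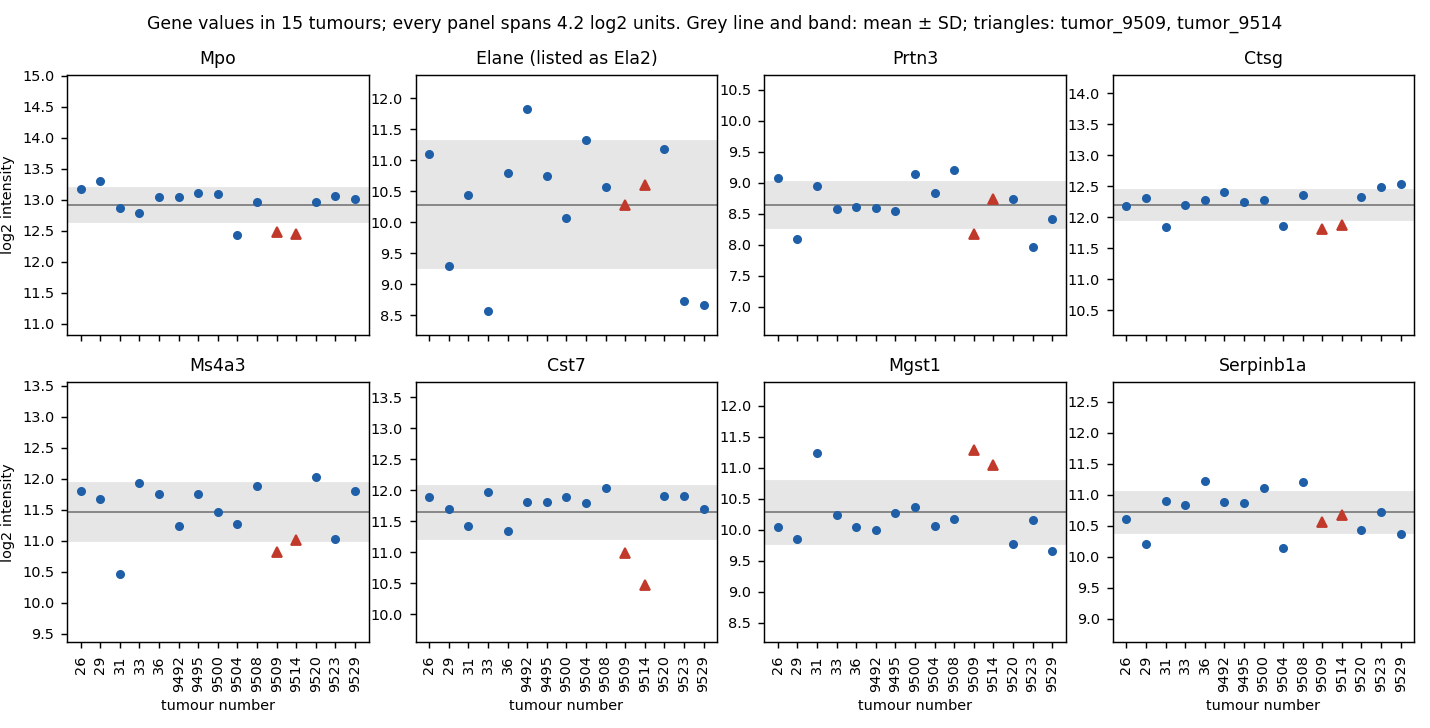
Log2 intensity of each of the 8 genes (vertical axis) in the 15 tumours, 1 point per tumour, triangles for tumor_9509 and tumor_9514, with the mean (line) and SD (band) over tumours; every panel spans the same number of log2 units. Elane spans 8.56 to 11.83, whereas Mpo spans 12.42 to 13.30 and Ctsg 11.81 to 12.53.

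Mpo, which encodes myeloperoxidase, had a log2 intensity of 12.42 in tumor_9504 at the lowest, a median of 13.01, and 13.30 in tumor_29 at the highest. Its mean was 12.91 ± 0.27 (SD, n = 15), and its range 1.83-fold. The 3 lowest, tumor_9504, tumor_9514 and tumor_9509, at 12.42, 12.44 and 12.48, lay below a gap of 0.31. Without tumor_9509 and tumor_9514 the SD was 0.21.

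Ctsg, the gene of cathepsin G, was as even. It ran from 11.81 in tumor_9509 over a median of 12.28 to 12.53 in tumor_9529, a 1.65-fold range, with a mean of 12.20 ± 0.24 (SD, n = 15). Its 4 lowest tumours, tumor_9509, tumor_31, tumor_9504 and tumor_9514, lay between 11.81 and 11.88, below a gap of 0.30. The median SD over all 9452 genes was 0.29, close to that of Mpo and of Ctsg, though genes as bright as these varied less, with a median SD of 0.17 between 12 and 13.

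Prtn3, which encodes proteinase 3, ran from 7.97 in tumor_9523 over 8.60 to 9.21 in tumor_9508, with a mean of 8.64 ± 0.37 (SD, n = 15). Its 7 probesets did not report alike. The 3 brightest had means of 10.37 to 11.23 and SDs of 0.55 to 0.82, while the dimmest pair lay at 6.34 and 6.56 with SDs of 0.31 and 0.43. The gene's median therefore fell on dim probesets near 8.34 and 8.47. Tumor_9523 was the lowest tumour in 5 of the 7.

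Above an intensity of 10 on the log2 scale the typical SD of a gene was smaller the brighter the gene, which touches the contrast between Elane and the brighter Mpo and Ctsg. For the 377 genes between 10 and 11 on the log2 scale the median SD was 0.31, and 4 had an SD above 1. Of the 74 genes between 12 and 13, with the median of 0.17 given above, 0 had an SD above 1, and Mpo and Ctsg lay above that median. Within Mpo, the 4 dimmest probesets, at 10.08 to 12.28, had SDs of 0.52 to 0.68, against 0.11 to 0.40 for the other 11. Without tumor_9509 and tumor_9514 these were 0.34 to 0.46 and 0.12 to 0.27. At about the same intensity, Elane probeset 5529757 at 10.19 had an SD of 0.93 and Mpo probeset 5501631 at 10.08 had an SD of 0.52. The share of the contrast that goes with intensity was not tested.

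**Figure D2:**
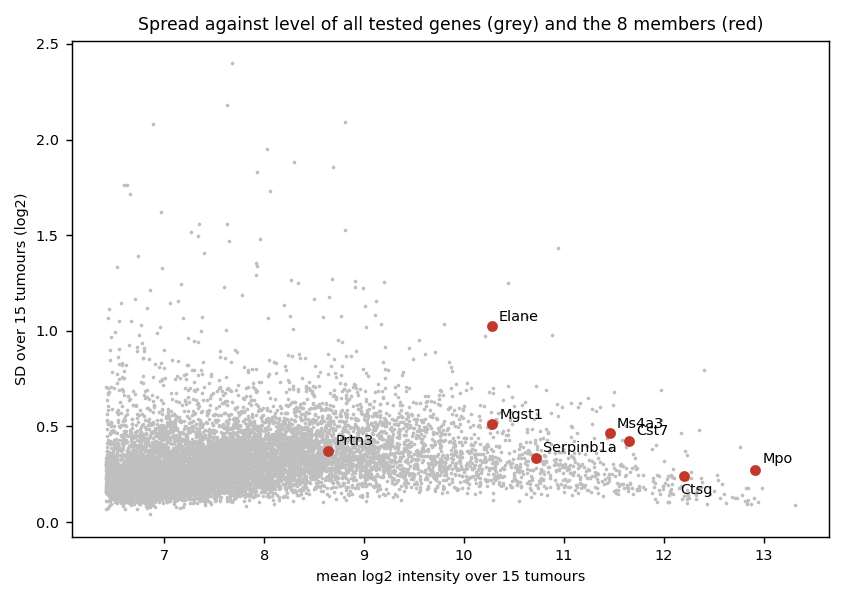
SD over 15 tumours (vertical axis, log2 units) against mean log2 intensity (horizontal axis) for 9452 genes (grey), with the 8 genes named (red). Elane lies at 10.28 with an SD of 1.02, far above the median SD of 0.31 between 10 and 11; Mpo and Ctsg lie at 0.27 and 0.24.

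Ms4a3, a membrane protein gene used as a mark of granulocyte-monocyte progenitors, ran from 10.46 in tumor_31 over 11.67 to 12.03 in tumor_9520, with a mean of 11.46 ± 0.47 (SD, n = 15). Cst7, which encodes cystatin F, an inhibitor that acts on cathepsin C, ran from 10.48 in tumor_9514 over 11.81 to 12.04 in tumor_9508, with a mean of 11.65 ± 0.42. All 13 Cst7 probesets were lowest in tumor_9514, and tumor_9509 had the next lowest gene value. Without these arrays the SD of Cst7 was 0.20, against 0.42 with them.

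Mgst1, a microsomal glutathione transferase gene, ran from 9.66 in tumor_9529 over 10.16 to 11.29 in tumor_9509, with a mean of 10.28 ± 0.51 (SD, n = 15). It was high in 3 tumours, tumor_9509, tumor_31 and tumor_9514, at 11.29, 11.24 and 11.05, and no more than 10.37 in the other 12. These 3 tumours were also the lowest in Ms4a3, though tumor_9514 at 11.01 was hardly below tumor_9523 at 11.02. Serpinb1a, whose protein inhibits elastase, cathepsin G and proteinase 3, ran from 10.14 in tumor_9504 over 10.73 to 11.22 in tumor_36, with a mean of 10.72 ± 0.34 and no wide gap. An SD above 0.5 was found in 10.8% of genes, and among the members in Elane and Mgst1.

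Which members moved together was asked by fitting all 9451 other genes on each member's level in turn with limma, with Benjamini-Hochberg adjustment over all genes. A pair passed when adjusted p was under 0.05 in both fits. Of the 28 pairs, 18 had a positive and 10 a negative correlation, with a median r of 0.10. A permutation test of 100000 resamples, two-sided, gave p under 0.05 for 9 pairs with Pearson's r and for 3 with Spearman's rho. Passing the fits were 3 pairs, and without tumor_9509 and tumor_9514 none of the 28.

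Mpo and Ctsg passed over all 15 tumours, but only just. Pearson's r was 0.76 (permutation p = 0.0014, n = 15) and Spearman's rho 0.46 (permutation p = 0.0875). Adjusted p was 0.0274 for Ctsg in the Mpo fit and 0.0492 for Mpo in the Ctsg fit, by limma with Benjamini-Hochberg adjustment. In the Mpo fit 12.4% of all genes passed, 12.1% higher and 0.37% lower with Mpo, so Ctsg was 1 of 1175. In the Ctsg fit 3.02% passed, 2.66% higher and 0.36% lower. The higher adjusted p lay above 0.05 in 14 of the 15 fits that left out 1 tumour, at 0.0514 to 0.179, and passed only without tumor_31, at 0.0219. Tumor_9504, tumor_9509 and tumor_9514 were among the lowest 4 in both genes. Without tumor_9504 and tumor_9514, the farthest from the median of Mpo, r was 0.62. It was 0.61 without tumor_9509 and tumor_9514 (adjusted p = 0.584 and 0.487) and 0.91 among the 10 tumours whose number has 4 digits.

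Mgst1 had negative correlations with Ctsg and Cst7 that passed over all 15 tumours. With Ctsg, r was -0.78 (permutation p = 0.001, n = 15) and rho -0.70 (permutation p = 0.00407), with limma adjusted p of 0.0304 and 0.0357. In the Mgst1 fit 6.66% of genes passed, 1.5% higher and 5.15% lower with Mgst1. Without tumor_31 and tumor_9509, the farthest from the median, r was -0.60, and without tumor_9509 and tumor_9514 it was -0.63 (adjusted p = 0.383 and 0.390). The pair also missed with the mean over probesets (higher adjusted p = 0.0538), with centred arrays (0.0991), within the 10 tumours with 4 digits (0.0684), with the 3 brightest probesets (0.679, r = -0.56) and in 5 of the 15 fits that left out 1 tumour.

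With Cst7, r was -0.69 (permutation p = 0.00774) but rho only -0.22 (permutation p = 0.432), with limma adjusted p of 0.0160 and 0.0436. In the Cst7 fit 19.8% of genes passed, 18.0% higher and 1.71% lower with Cst7. Without tumor_9509 and tumor_9514, which are also the farthest from the Cst7 median, r was -0.31, so this relation rests on those arrays, and it missed in 10 of the 15 fits that left out 1 tumour, with a higher adjusted p of up to 0.210. With Ms4a3, r was -0.78 (permutation p = 0.00079) and rho -0.56 (permutation p = 0.0333). The pair passed in the Mgst1 fit, at adjusted p = 0.0193, and missed in the Ms4a3 fit, at 0.0656, where 0.106% of genes passed, 0.0741% higher and 0.0317% lower. It passed both fits with the mean over probesets (r = -0.85, adjusted p = 0.00729 and 0.00819) and with the 3 brightest probesets (r = -0.81, adjusted p = 0.0241 and 0.0147). Its r was -0.53 without tumor_31 and tumor_9509 and -0.71 without tumor_9509 and tumor_9514.

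**Figure D3:**
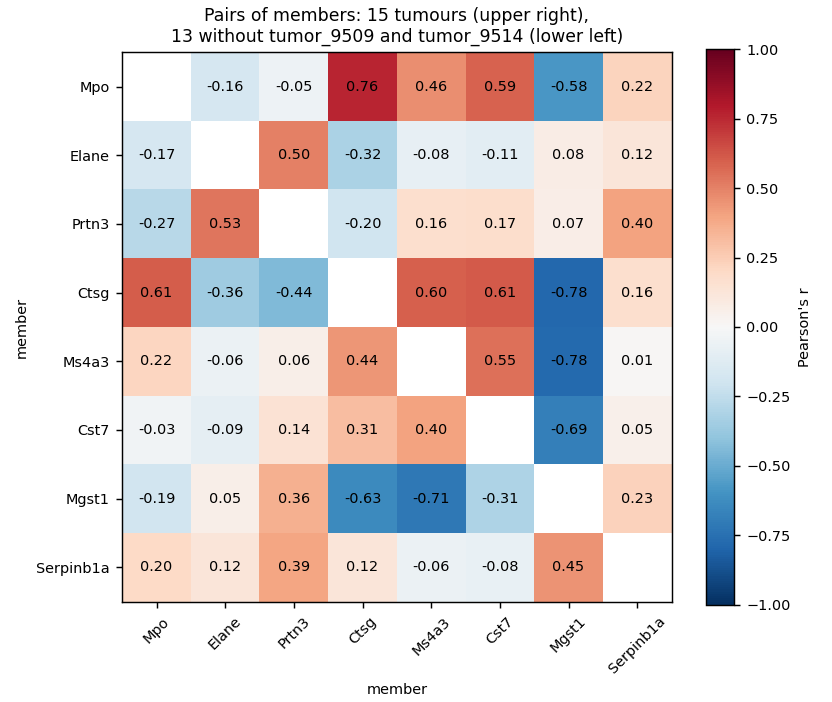
Pearson's r for each of the 28 pairs of the 8 genes, over all 15 tumours in the upper right and over the 13 without tumor_9509 and tumor_9514 in the lower left, on a colour scale from -1 to 1. In the upper right Mpo with Ctsg reaches 0.76 and Ctsg with Mgst1 -0.78, while the pairs of Elane stay between -0.32 and 0.50.

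Elane passed that test with none of the other 7. Its correlation with Mpo was -0.16 (permutation p = 0.556, n = 15) with a rho of -0.06 (permutation p = 0.843), and limma adjusted p was 0.688 and 0.919. With Ctsg r was -0.32, and with Ms4a3, Cst7, Mgst1 and Serpinb1a it lay between -0.11 and 0.12. In the Elane fit 0.0% of genes passed, with 735 of 9451 at an unadjusted p under 0.05, so no member was called against a background of none.

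In the 4 tumours lowest in Elane, the granule enzymes did not share a place in the order. Mpo was 12.79 in tumor_33, 13.01 in tumor_9529, 13.06 in tumor_9523 and 13.30 in tumor_29, which are places 4, 8, 11 and 15 counted from the lowest of 15. Ctsg was 12.19, 12.53, 12.50 and 12.32 in the same order, at places 6, 15, 14 and 10. The tumour with the most Mpo thus had the fourth lowest Elane, and the tumour with the most Ctsg the second lowest.

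Prtn3 was the member closest to Elane. On the gene medians r was 0.50 (permutation p = 0.0585, n = 15) and rho 0.43 (permutation p = 0.111), and limma adjusted p was 0.639 and 0.770. Without tumor_33 and tumor_9529, the farthest from the Elane median, r was 0.54, and without tumor_9509 and tumor_9514 it was 0.53.

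The bright probesets of Prtn3 lay closer to Elane than its median did. Their r with Elane was 0.70 to 0.76, against -0.04 and 0.38 for the dimmest pair. The remaining probesets, at 8.34 and 8.47, had 0.67 and 0.55. A median of the 3 brightest probesets of each gene was therefore added after the data were seen. On that value Prtn3 was 8.99 in tumor_9523, 9.65 in tumor_29, 9.91 in tumor_9529 and 10.18 in tumor_33, its 4 lowest tumours, and these are the 4 lowest of Elane. There r was 0.71 and rho 0.58, a description with no test, since these probesets were taken after their relation to Elane was seen. Over the 11 tumours above the gap in Elane, r was -0.05, and -0.12 on the gene medians, so the relation rests on the 4 low tumours. By the 3 brightest probesets of Mpo, tumor_9523, tumor_33, tumor_9529 and tumor_29 held places 6, 8, 10 and 15 of 15.

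**Figure D4:**
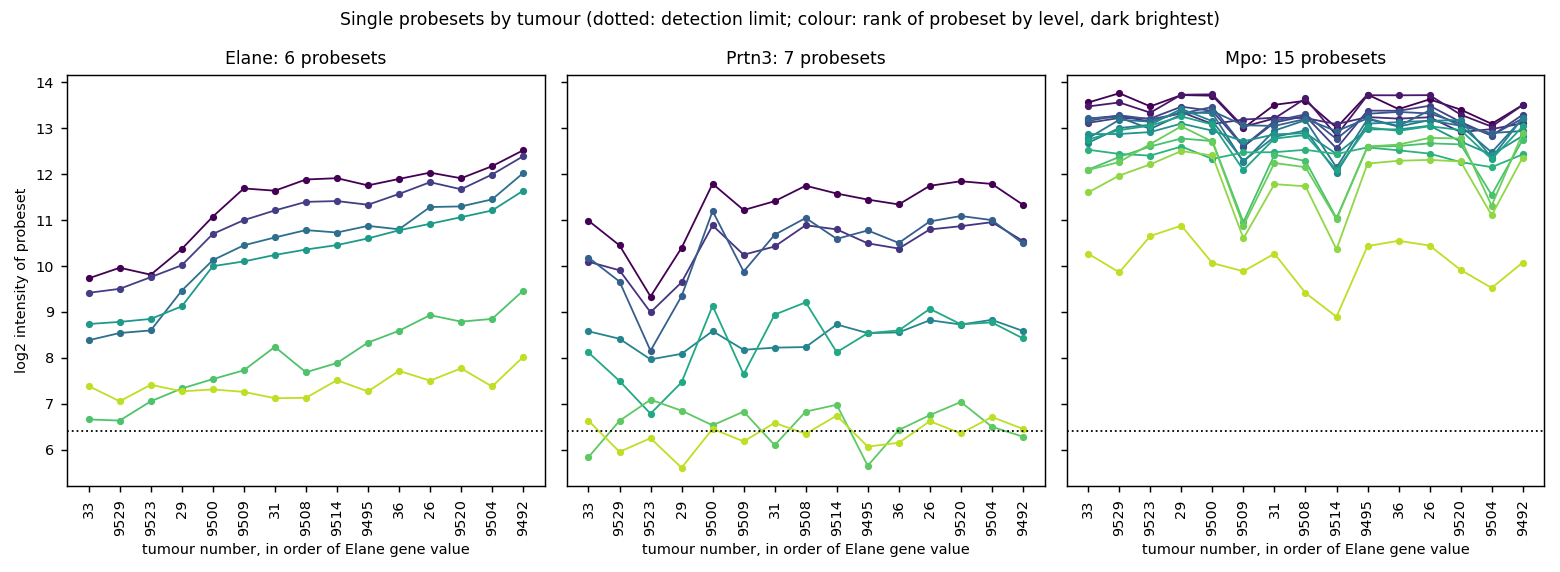
Log2 intensity of single probesets (lines, darkest for the brightest probeset) of Elane, Prtn3 and Mpo in the 15 tumours, ordered along the horizontal axis by the Elane gene value; the dotted line is the detection limit of 6.415. The 3 brightest Prtn3 lines are low in the 4 leftmost tumours, tumor_33, tumor_9529, tumor_9523 and tumor_29, whereas the dips of the Mpo lines are in tumor_9504, tumor_9509 and tumor_9514.

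The genes around Elane were read in RefSeq gene order. Cfd, the complement factor D gene and the next gene on the other side from Prtn3, had r = 0.63 with Elane (permutation p = 0.00958, rho 0.63 with permutation p = 0.0139, limma adjusted p = 0.621) and a mean of 7.32 ± 0.20 (SD, n = 15). The 4 genes after it, Med16, R3hdm4, Kiss1r and Arid3a, had r of 0.27 to 0.46, and Ptbp1 and Palm on the Prtn3 side -0.08 and 0.18. With Prtn3, by contrast, Cfd had an r of -0.05, R3hdm4 -0.01, Med16 0.31 and Kiss1r 0.57. Around Ctsg, the basophil protease gene Mcpt8 had an r of 0.01 with it. Near Mpo, Lpo and Epx, which encode the related lactoperoxidase and eosinophil peroxidase, had r of -0.07 and 0.23 with Mpo, and Tspoap1 0.77. In the Mpo fit 12.4% of all genes passed, and none without tumor_9509 and tumor_9514.

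Of the transcription factors that control granule genes, 0 of 15 measured passed in the Elane fit, and their median r was 0.16 against -0.01 over all genes. Spi1, which encodes PU.1, came closest, at r = 0.69 (permutation p = 0.00449) and rho 0.72 (permutation p = 0.0036), with a limma adjusted p of 0.484. It lay at 9.28 ± 0.45 (SD, n = 15) and was lowest in tumor_29, and its r was 0.72 without tumor_9509 and tumor_9514. Gfi1, a repressor whose loss in mice blocks neutrophil maturation, had r = 0.51, and Runx1 0.46. Cebpe, needed for the later granule stages, had 0.18, Cebpa -0.36, Myb -0.42 and Cux1, which encodes a homeobox repressor, -0.51.

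Of the genes that mature and pack the proteases, 0 of 11 passed. Ctsc, which encodes the activating cathepsin C, had r = -0.49 with Elane and itself varied with an SD of 0.96 around 7.24. Hax1, a gene mutated in human congenital neutropenia as ELANE is, had r = 0.49, and Srgn, for serglycin, 0.12. The members of the serine protease family other than those above that were detected, Gzma, Gzmb, Gzmm, Mcpt8 and Prss34, had r of -0.27 to 0.45.

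Markers of later and of other cells did not pass either. None of the 11 detected secondary granule genes, the 10 mature neutrophil genes or the 7 stem and progenitor genes did, with median r of -0.0011, -0.21 and -0.43. Of the secondary granule genes 5 had a positive r, with Chil3, a chitinase-like gene of maturing neutrophils, at 0.64 and Adam8, a metalloprotease gene, at -0.47. Of the 7 progenitor genes 1 had a positive r, at 0.35. The most negative were Kit, the stem cell factor receptor gene, at -0.57 and Hlf, a transcription factor gene of stem cells, at -0.52. The 7 red pulp macrophage genes had a median of -0.44, all 7 below 0, with Hmox1 at -0.55 and C1qb at -0.53, and their part in the Elane differences was not tested. The log2 of their summed intensity, Spic included, lay between 9.82 in tumor_9509 and 11.66 in tumor_33, where Elane was 10.28 and 8.56. Tumor_33 also had the highest sum for the granule hydrolase, protease maturation, megakaryocyte, eosinophil and monocyte lists. The 13 cell cycle genes had a median of -0.19.

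**Figure D5:**
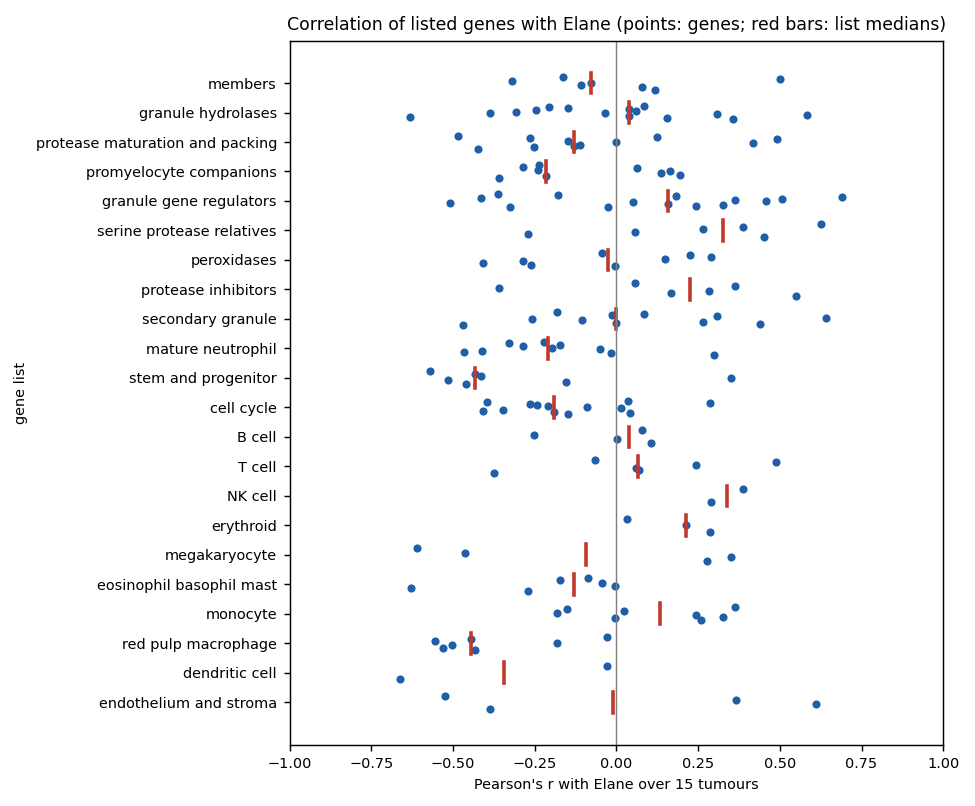
Pearson's r with Elane over 15 tumours (horizontal axis) for the detected genes of each list (rows), 1 point per gene, with the list's median. Medians run from -0.44 in 7 red pulp macrophage genes to 0.34 in NK cell genes, of which only 2 were detected, and no gene passed the limma fit.

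The genes with a pattern most like Elane over the 15 tumours were Zfp385a and Arf3, both at r = 0.80, and Pstpip2 at 0.78, an adaptor gene of macrophages and neutrophils. They were followed by Afap1l2, Fam89b, Rab34, Rras, Pcdha5, Rhpn1 and Fam160a2, at 0.75 to 0.77. Most opposed were Polk and Ivns1abp, both at -0.86, and Xpc at -0.84, where Polk encodes a translesion DNA polymerase and Xpc a nucleotide excision repair protein. Ptpn4, Akap9, Clec4e, Mettl1, Zfp62, Endou and Trnt1 had -0.81 to -0.77. None passed, the lowest adjusted p being 0.223 for Ivns1abp.

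The other members had other neighbours in pattern. For Mpo these were Ocrl, Nup188 and Ap2b1, at r of 0.91, 0.90 and 0.89 with limma adjusted p of 0.00808, 0.00808 and 0.00689. The Mpo fit also held 8 of 13 cell cycle genes, all higher with Mpo and among them Top2a and Mcm7, beside 12.1% of all genes higher. This was the gene list with the most calls in that fit. Of the genes that mature and pack the proteases 3 of 11 were higher, of the granule gene regulators 3 of 15, and of the granule hydrolases 2 of 15. Without tumor_9509 and tumor_9514 no gene passed. Cst7 was followed by Aimp2, Ccdc84 and Cdk4, each at 0.95, and there too no gene passed without these arrays.

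Mgst1 was followed by Phf1 at 0.94, Rnase6 at 0.91 and Tnf at 0.90. Of these, Phf1 and Tnf had adjusted p = 0.0434 without tumor_9509 and tumor_9514, where 6 genes passed. Prtn3 had Clec11a at 0.88, the 1 gene that passed in its fit (0.0106% of genes, adjusted p = 0.0278). Without tumor_9509 and tumor_9514 its r was 0.88 with an adjusted p of 0.0647, and no gene passed there or with the mean over probesets. Ctsg had Nasp, Pdia6 and Ccdc50 at 0.88, Ms4a3 had Dclre1a, Atad1 and Mxra7 at 0.85 to 0.91, and these 6 genes passed at adjusted p of 0.0228 for Ctsg and 0.0378 for Ms4a3. Without tumor_9509 and tumor_9514 none of the 6 passed, at 0.224 to 0.309 and 0.144. Serpinb1a had Rnf43, Cyfip1 and Trir at 0.84 to 0.85, with 0.0% of genes called in its fit and 542 at an unadjusted p under 0.05.

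Tumour names have either 4 or 2 digits, which may mark a batch but is no group of the study. Elane averaged 10.40 ± 1.04 in the 10 tumours with 4 digits and 10.04 ± 1.07 in the 5 with 2 digits (SD), a difference of 0.36 with a limma adjusted p of 1.00. By the same test 0.0% of 9452 genes differed, with 220 at an unadjusted p under 0.05. The 4 tumours with low Elane include tumor_33 and tumor_29 among the 2-digit numbers and tumor_9529 and tumor_9523 among the 4-digit ones.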

How the data were processed

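The data are 15 samples of spleen with APL on a 1-colour exon array, and no tumour number occurs in more than 1 sample. The members and gene lists were chosen with earlier results of these data known. Each array's deposited value is 1 intensity per probeset on a linear scale, from 2.38 to 19380.5. The submitters' processing notes name RMA, a method of background correction, normalization and probe summary, and build mm9, with no version. Scanner files were not analysed here.

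Values were taken to log2 in this work. The 208397 probesets with 1 symbol were used, and 3965 with several and 17219 with none of the 229581 were left out. Of 16299 symbols, 2125 were renamed through the RefSeq gene table of GRCm38.p6, which was used for names and gene order only, and 42 were kept unmatched. Genes tested (9452) had a mean above the 40th percentile and at least 3 probesets. Fits used limma 3.58.1 (lmFit and eBayes, R 4.3.3), with a member's level as covariate. Permutation tests used numpy 2.4.6 and scipy 1.17.1 in Python 3.11.15. On simulated data (9451 genes, fit on Elane), 84% of 100 genes with a slope of 0.5 were recovered. With a slope of 1, 100% of 100 were recovered, and there were 10 other calls. Recovery at slopes below 0.5 was not tested, and neither was how far these rates hold for the measured genes. Genes named beside the members were the 3 highest r per member, the 10 highest and 10 lowest r with Elane, every detected gene of the regulator, maturation and serine protease lists, the 2 genes of each other list with the largest absolute r to Elane, and neighbours of Prtn3, Elane, Mpo and Ctsg. The number of arrays limits the precision. The settings varied were the summary (mean of probesets, or only those over the 25th percentile), the dim-gene filter (none, or the 60th percentile), array scaling (median centring, quantile), tumours left out, the 10 tumours with 4 digits alone and the number of digits as a covariate.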

Additional observations from a re-analysis of the deposited data

How the results depend on the processing

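The SD of Elane lay between 0.81 and 1.10 under the other settings and between 0.94 and 1.06 with single tumours left out. No gene followed Elane in any of the 10 other settings, and 0 to 1 with single tumours left out. The 3 pairs of members that passed became 0 without a filter on dim genes, 1 with arrays centred on the median, 0 without tumor_9509 and tumor_9514, and 0 to 4 with single tumours left out; other settings gave 2 or 3. The pairs were not always the same: with the mean over probesets Mpo with Cst7, Ms4a3 with Mgst1 and Cst7 with Mgst1 passed, with the 3 brightest probesets Ms4a3 with Mgst1 and Cst7 with Mgst1. The correlation of Mpo with Cst7 was 0.59 over all tumours and -0.0333 without tumor_9509 and tumor_9514; it passed at 0.71 with the mean over probesets. Mpo with Ctsg no longer passed with the mean over probesets (0.62), with centred (0.72) or quantile normalized arrays (0.72) or with the 3 brightest probesets (0.62). The number of genes following Mpo, 1175, was 2630 with the mean over probesets, 797 without the filter, 145 centred, 542 quantile normalized, 39 with the 3 brightest probesets and 0 without tumor_9509 and tumor_9514. That of Ctsg, 285, was 0, 86, 0, 101, 0 and 0 under the same settings. The causes were not tested. The numbering check called 0 genes under every setting, with 131 to 424 at an unadjusted p under 0.05. No paired analysis was possible because all samples belong to 1 group. Signal over background was not in the data used, so the depth behind dim probesets is unknown.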

Other observations

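Among the granule hydrolase and membrane genes, Cd63, a tetraspanin of the azurophil granule membrane, varied little, at 12.73 ± 0.12 (SD, n = 15). Its r with Elane was -0.63, and -0.82 without tumor_9509 and tumor_9514. Lamp1, a lysosomal membrane glycoprotein gene named after its values were seen, had r = 0.36 over the 15 tumours and 0.92 without these arrays. Npc2, for a soluble lysosomal cholesterol carrier, was at 0.58. Of the 15 measured genes of that list 8 had a positive r, and none passed the limma fit on Elane.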
